A study of Mus musculus with 6 samples.

Results

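Retnla-high cells were compared with Retnla-low cells within a single droplet library of mouse alveolar type II (ATII) cells. Retnla encodes a small secreted protein of the resistin-like family. Cells counted as high when Retnla made up at least 0.5% of their unique molecular identifiers (UMIs, 1 per captured transcript) and as low when it made up less than 0.1%. Cells needed at least 1000 UMIs and no UMI of the cell cycle genes Mki67, Top2a, Cdk1 or Ccnb1. Of 5594 barcodes in the library, 3659 met these conditions: 2064 were Retnla-high, 1049 Retnla-low and 546 lay between the cuts. The 3113 cells compared are part of 36584 barcodes in the series. Retnla chose the cells, so it is left out of every total and every result, and the differences below describe cells chosen by a readout.

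The study is about the response of ATII cells to interleukin 4 (IL-4) and how it differs with the age of the mouse. The labels give the genotype IL4Ra WT for every library and list 3 expression libraries. The first holds cells taken straight after sorting (day 0), from mice of both ages. The other two hold cells kept in culture until day 13, one from mice of both ages and one from young mice. Cultures were alveolarspheres, hollow balls of epithelium grown here without serum or feeder cells, to which cytokine (10 ng/ml) or PBS was added on day 3. The design text gives the cytokine another interleukin number than the title does. Each library is labelled a mixed sample, and how many mice were pooled is not given in the sources used here. The matrix marks its barcodes with 3 library tokens that match no label, so they are referred to as libraries A, B and C by order of appearance. The cells described here are those of library B, and their day, age, mouse and treatment are not known. A Retnla-high cell is therefore not a cell known to have met IL-4.

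ATII cells make and recycle lung surfactant and can give rise to alveolar type I (ATI) cells, the thin cells across which gas is exchanged. IL-4 and IL-13 act through the receptor chain IL4Ra and the transcription factor STAT6. In airway and alveolar epithelium this pathway is known for turning on secreted proteins such as Retnla and the chitinase family, and for inducing the SOCS and CISH proteins that damp cytokine signalling. STAT factors bind DNA at paired half-sites TTC and GAA, spaced by 3 or 4 bases, and STAT6 is known for the wider spacing.

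Since Retnla defines the cells and Chil4 differed most among the measured type 2 secreted products, the stretches of their promoters that hold such spaced half-sites are shown, with the half-sites and the bases between them in capitals. Both are RefSeq sequences on GRCm38.p6, read 5′ to 3′ on the gene's strand. The Retnla stretch is chr16:48842419-48842518, plus strand, and its site starts 145 bases before the RefSeq gene start. The Chil4 stretch is chr3:106219625-106219724, minus strand, and its site starts 200 bases before the start.
Retnla: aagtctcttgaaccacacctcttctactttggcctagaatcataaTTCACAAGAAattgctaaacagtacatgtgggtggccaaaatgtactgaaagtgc
Chil4: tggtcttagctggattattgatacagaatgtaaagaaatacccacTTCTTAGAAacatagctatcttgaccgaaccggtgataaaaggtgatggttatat

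The Retnla site has 4 bases between the half-sites (TTCNNNNGAA) and the Chil4 site has 3 (TTCNNNGAA). Each motif reads the same on both strands. The 250 bases before the start held TTCNNNNGAA in 6.76% of the 27025 genes in the promoter table and TTCNNNGAA in 8.13%. Among the 3723 measured genes with a promoter there, from which the higher and lower genes come, the shares were 5.21% and 6.63%. Among the genes higher in Retnla-high cells, 92 had a promoter in the table, of which 7.61% held the first motif and 9.78% the second. Among 154 genes that were lower, the shares were 7.14% and 3.90%. The windows of Chia1, Il4i1, Hdc, Slc26a4, Socs1, Cish, Rgs4 and Fetub held neither string of letters.

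**Figure D1:**
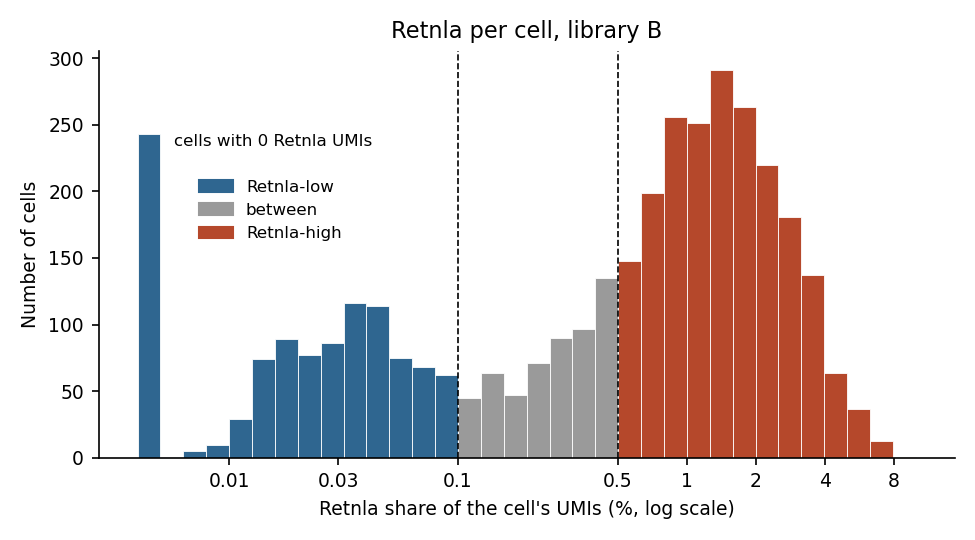
Number of library B cells (vertical axis) by the share of their UMIs that came from Retnla (horizontal axis, percent, log scale), with the 0.1% and 0.5% cuts as dashed lines and the 243 cells without a Retnla UMI in the bar at the left. The Retnla-high cells form a single broad hump with a median of 1.41%, a smaller hump lies below the 0.1% cut, and cells fill the stretch between the cuts without a gap.

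Retnla took 1.77% of all UMIs in the Retnla-high cells and 0.0284% in the Retnla-low cells. Single high cells ranged from 0.501% to 7.98% with a median of 1.41%. The 0.5% cut fell on a slope and not in a gap: 58 cells lay within 10% below it and 52 within 10% above it, the nearest at 0.4996% and 0.5007%. At the 0.1% cut the counts were 27 and 16, the nearest at 0.0997% and 0.1006%. This cut lay by a thin stretch of the histogram, with 45 cells in the bar just above it. Below it was a smaller hump of Retnla-low cells (up to 116 per bar), and above it the larger hump (up to 291 per bar). High and low are defined as ranges of 1 measure and not as cell types, and whether they are separate populations was not tested.

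Depth moved with the groups. The median cell held 8650 UMIs and 2167.5 genes in the Retnla-high group and 5707 UMIs and 1682 genes in the Retnla-low group. Mitochondrial UMIs were 0.852% and 0.657% of the median cell, and Malat1, a nuclear RNA, was at 5988 CPM (counts per 1000000 counts) in high and 8357 CPM in low cells. The cell cycle gate did not make the groups equal in cycling transcripts. The 10 proliferation markers, including the gate genes at 0, summed to 32.5 CPM in high and 83.3 CPM in low cells. Ube2c, the largest of them, was at 18.8 and 46.9 CPM. Whether depth had a part in this was not tested. Between 20 and 67 droplet barcodes were shared by each pair of libraries, and 23 of the 3113 cells carried a barcode also found in library A or C.

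Counts were summed over the cells of each group and expressed as CPM without Retnla. With 1 library there is no replicate and no test. Intervals are at the 95% level and cover counting error only: exact Poisson for a CPM, exact conditional for a ratio of 2 counts, and Clopper-Pearson for a share of cells. A gene was called higher or lower when its 2 sums differed at least 2-fold (log2 fold of at least 1, with 1 CPM added to each sum) and it reached 20 CPM in either group. The interval beside a log2 fold is that of the raw ratio, without the added 1 CPM. Where 1 group is near 0 CPM, the fold can therefore lie at the edge of its interval or outside it. By this rule 118 of 4708 genes (2.51%) were higher and 206 (4.38%) were lower in Retnla-high cells. The median log2 fold over all 4708 genes was −0.08, and 41.7% of them had a positive fold. Since the same cells and the same contrast chose the groups, these shares are a backdrop for the lists and carry no evidence of their own.

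Retnla-high cells held several times more transcripts of 2 secreted proteins of the chitinase family. Chil4, a chitinase-like secreted protein also called Ym2, was at 13084 CPM (13031 to 13136) in Retnla-high cells and 1305 CPM (1277 to 1333) in Retnla-low cells, a log2 fold of 3.32 (3.29 to 3.36). Per cell, Chil4 had a median of 9259 CPM, quartiles of 2930 and 18932 CPM and a highest value of 93826 CPM in the high group. In the low group the median cell was at 162 CPM, the upper quartile at 400 CPM and the highest cell at 52489 CPM. The bulk of the groups was thus far apart while their extremes overlapped. Chil4 lies at chr3:106201490-106219507 (GRCm38, minus strand). Reads of its close relative Chil3 could be divided between both genes, and Chil3 had 83 counts in high and 2 in low cells.

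Chia1, the acidic mammalian chitinase that cleaves chitin, lies nearby at chr3:106113229-106132120 on the plus strand. It stood at 1445 CPM in Retnla-high and 328 CPM in Retnla-low cells, a log2 fold of 2.13 (2.07 to 2.20). The median high cell held 646 CPM of Chia1, whereas the median low cell held 0. Both genes were the only measured members of the 20 type 2 secreted products listed. Against the 243 low cells with no Retnla UMI at all, the log2 folds grew to 5.0 for Chil4 and 3.74 for Chia1.

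Most Chil4 in the Retnla-low group came from few cells. Of 1049 Retnla-low cells, 69 (6.58%, 5.15 to 8.25) gave at least 0.5% of their UMIs to Chil4, and they held 76.8% of the group's Chil4 UMIs. In contrast, 1372 of 2064 Retnla-high cells (66.5%, 64.4 to 68.5) reached that share. The 69 cells carried Chia1 at 1249 CPM, against 165 CPM in the 901 low cells with less than 0.1% Chil4. Fetub was at 277 CPM in the 69 cells and 38.4 CPM in the 901, Cxcl5 at 93.7 and 278 CPM, and Il4i1 at 8.72 and 11.5 CPM, with an Il4i1 UMI in 4.35% of the 69 cells. Their Chil4 level follows from how they were picked. Their Chia1 and Fetub levels were nearer to those of the Retnla-high group than to those of the 901 cells, and their Cxcl5 level was not.

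The reverse kind of cell was present too. In 305 Retnla-high cells (14.8%, 13.3 to 16.4) Chil4 made up less than 0.1% of UMIs. Their Chia1 was at 1614 CPM, Hdc at 112 CPM, Socs2 at 232 CPM and Rgs4 at 265 CPM. In the 1372 Retnla-high cells rich in Chil4 the same 4 genes stood at 1293, 119, 222 and 275 CPM. Il4i1 was at 43.2 CPM in the Chil4-poor and 63.3 CPM in the Chil4-rich cells, Fetub at 264 and 368 CPM, and Lyz2 at 231 and 73.0 CPM.

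**Figure D2:**
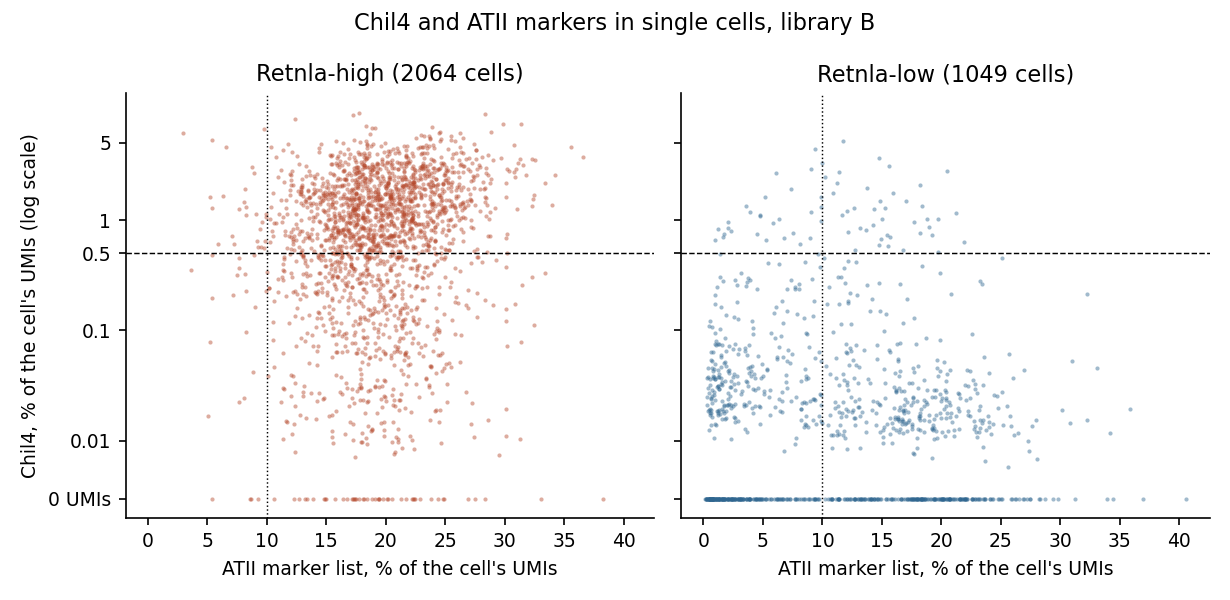
Each point is a cell of library B, with the ATII marker list as a percent of its UMIs on the horizontal axis and Chil4 as a percent of its UMIs on the vertical axis (log scale, cells without a Chil4 UMI at the bottom, dashed line at 0.5%, dotted line at 10%). Most of the 2064 Retnla-high cells sit in the upper right, and the 1049 Retnla-low cells spread over the whole range of ATII markers with 69 of them above the dashed line.

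Shares of cells with a UMI followed the sums once depth was made equal. After thinning every cell to 3000 UMIs, which left 2055 high and 966 low cells and left out 9 and 83, Chil4 was seen in 94.1% of high and 46.2% of low cells (unthinned, 97.6% and 62.9%). Chia1 was seen in 67.6% and 20.1% (unthinned, 80.5% and 24.5%), and Il4i1 in 12.6% and 3.52% (unthinned, 26.7% and 5.43%). Free RNA in droplets can give such UMIs in cells that do not make them, and its part was not tested directly. Of the 339 low cells with under 5% of UMIs from ATII markers, whose median depth was 4470 UMIs, all had an Sftpc UMI, 56.9% a Chil4 UMI, 19.5% a Chia1 UMI and 0.590% an Il4i1 UMI, all unthinned. In the whole low group, which includes these 339 cells, the unthinned Chil4, Chia1 and Il4i1 shares were 62.9%, 24.5% and 5.43%. The median depth was 5707 UMIs in that group and 8650 UMIs in the high group, so these unthinned shares are not at equal depth.

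Type 2 enzymes and transporters, 20 genes of which 9 reached 20 CPM, had 4 higher, 0 lower and a median log2 fold of 0.72, beside −0.08 over all measured genes. Il4i1, a secreted amino acid oxidase, was at 61.0 CPM (57.5 to 64.7) in Retnla-high and 11.3 CPM (8.81 to 14.2) in Retnla-low cells, a log2 fold of 2.34 (2.09 to 2.80). It was detected in 552 high cells and 57 low cells, so most cells of either group showed no UMI of it. Hdc, which makes histamine from histidine, was at 115 and 40.8 CPM, a log2 fold of 1.48. The anion exchanger pendrin (Slc26a4) was at 150 and 66.4 CPM with a log2 fold of 1.16, and carbonic anhydrase 2 (Car2) at 249 and 119 CPM with a log2 fold of 1.05. The other 5 measured members (Odc1 0.72, Cftr 0.58, Noxo1 0.56, Slc12a2 0.23 and Ptges 0.10) did not pass the 2-fold rule. Arg1, a widely used mark of type 2 activation in macrophages, had 12 counts in high and 6 in low cells, and Alox15 had none.

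Of 18 receptor and JAK-STAT genes, 4 reached 20 CPM, none of these 4 passed the 2-fold rule and their median log2 fold was 0.01. Among the 14 under 20 CPM some differed more, in both directions. Jak1, the kinase bound to IL4Ra, was at 54.5 CPM in high and 36.4 CPM in low cells. Il4ra stood at 14.3 CPM (258 counts) and 10.2 CPM (65 counts), a ratio of 1.41 (1.07 to 1.88), and Stat6 at 9.70 and 5.78 CPM, a ratio of 1.68 (1.17 to 2.46). The adaptor Irs1 had 309 and 45 counts, a ratio of 2.43 (1.78 to 3.41), the decoy receptor Il13ra2 203 and 12 counts, a ratio of 6.0 (3.36 to 11.8), and Jak3 56 and 52 counts, a ratio of 0.382 (0.257 to 0.568). These 3 were named after their values were seen. Il2rg, the shared chain of the type I receptor of leukocytes, had 0 counts in both groups.

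Genes that damp cytokine signals were divided. Of 14 listed, 5 reached 20 CPM, 1 was higher and the median log2 fold was 0.24. Socs2, which targets activated receptors for degradation, was at 224 CPM in high and 74.6 CPM in low cells, a log2 fold of 1.57 (1.45 to 1.73), with a median cell of 186 CPM against 0. Cish had a log2 fold of 0.86, the kinase Pim3 0.24, Pim1 0.07 and Pias1 −0.85. In the cells rich in ATII markers described below, Cish (1.29) and Pim3 (1.29) also passed the 2-fold rule, and the list median was 1.27. Those cells were chosen by a cut on ATII marker share and were not matched between the groups.

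Several classical targets lay under 20 CPM, outside the rule, and are named here after their values were seen. Intelectin 1 (Itln1) had 341 counts in high and 4 in low cells, a ratio of 30.2 (11.7 to 112). Retnlg, a relative of Retnla, had 306 and 21 counts, a ratio of 5.17 (3.32 to 8.47). Both pointed the same way as Chil4. Socs1 had 339 and 37 counts, a ratio of 3.25 (2.31 to 4.69), and the oxidase maturation factor Duoxa1 328 and 38 counts, a ratio of 3.06 (2.18 to 4.40). Tff1, a trefoil peptide, went the other way with 0 counts in high and 23 in low cells, at least 21.6-fold lower when 3 counts over the group are taken as the limit that a count of 0 allows. The mucin Muc5ac had 1 count in all, and the goblet cell gene Clca1 had none.

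Genes outside the type 2 lists filled most of the 12 highest folds. Rgs4, which shortens signalling by G proteins, was at 272 CPM in Retnla-high and 15.8 CPM in Retnla-low cells, a log2 fold of 4.02 (3.82 to 4.41). It was detected in 1490 of 2064 high cells (72.2%) and 71 of 1049 low cells (6.77%). Sprr2a3, a small proline-rich protein with near-identical copies among which reads could be divided, had a log2 fold of 3.62, and the tight junction gene Cldn10 3.05. Fxyd4, which modulates the sodium pump, had a log2 fold of 2.86 and the adhesion gene Ceacam10 2.71. Fetub, a protease inhibitor of the cystatin superfamily, had a log2 fold of 2.37, with a median cell of 284 CPM against 0. Aass, an enzyme of lysine breakdown, had 2.20. The known roles of these genes differ from one another.

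Neutrophil chemokines were among them as well. Cxcl3 was at 783 CPM in high and 139 CPM in low cells, a log2 fold of 2.48, and Cxcl5 at 1175 and 258 CPM, a log2 fold of 2.18. In the list of 24 chemokine and acute phase genes, 14 were measured, 4 were higher, 2 were lower and the median log2 fold was 0.58. Complement C3 (1.70), the lung chemokine Cxcl15 (1.13) and the alarmin Il33 (1.02) were higher besides Cxcl5. In the ATII-rich cells only 2 members were still higher, Cxcl5 (1.67) and C3 (1.52), and the list median was 0.12. With cells rich in ATI or transitional markers left out, the same 2 were higher (1.25 and 1.12) and the median was −0.08. The acute phase genes Saa3 (−5.15) and Hp (−3.47) were lower: Saa3 had 18 counts in all Retnla-high cells and 446 in the smaller Retnla-low group. Members of the list thus differed in both directions.

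**Figure D3:**
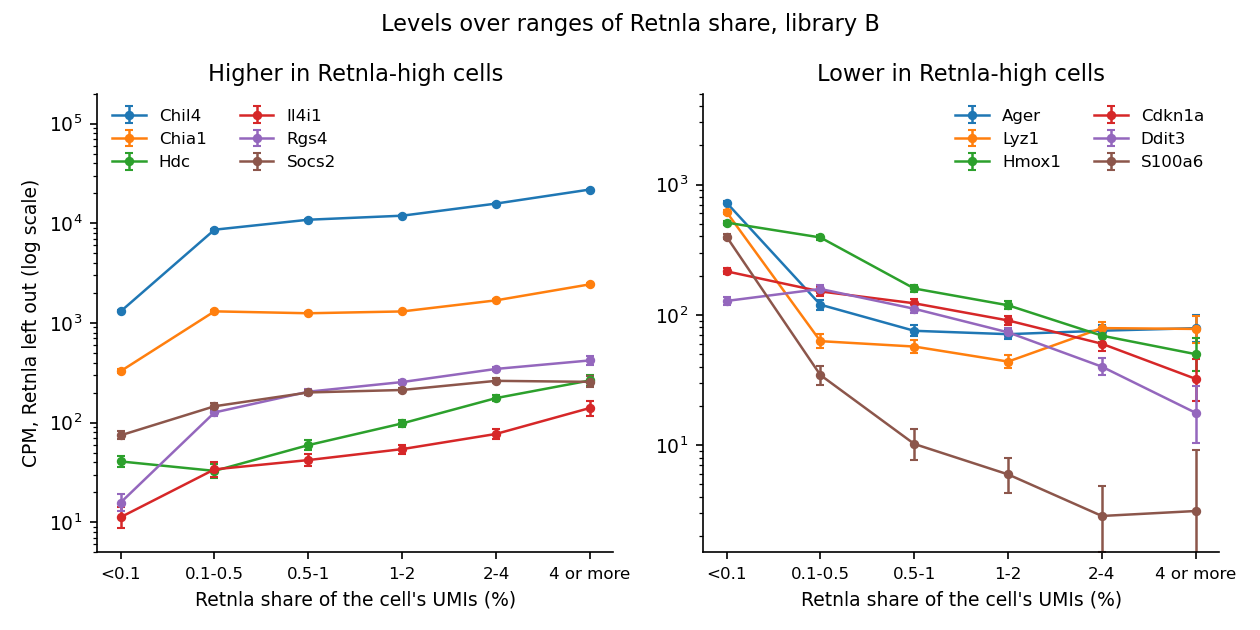
CPM without Retnla (vertical axes, log scale, bars are 95% Poisson intervals) of 12 genes in 6 ranges of Retnla share (horizontal axes, percent of UMIs), summed over 1049, 546, 606, 808, 536 and 114 cells of library B from left to right. Chil4, Il4i1 and Rgs4 climb at every step, Chia1 is level between 0.1% and 2%, and Ager and Lyz1 drop between the first 2 ranges and stay far below their first value in the others.

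Within the Retnla-high range itself, some genes kept climbing with Retnla and others were level. Cells were divided by Retnla share at 0.1%, 0.5%, 1%, 2% and 4% of UMIs. Chil4 rose at each of the 5 steps, from 1305 to 8607, 10841, 11897, 15736 and 21774 CPM. Il4i1 also rose at each step, from 11.3 to 34.0, 42.1, 54.2, 77.0 and 140 CPM. Hdc was no higher in the second range than in the first (32.8 against 40.8 CPM) and then rose to 59.5, 98.2, 176 and 265 CPM. Hdc therefore separated cells within the Retnla-high range more than it separated that range from cells with little Retnla.

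Chia1 behaved otherwise. It stood at 328 CPM in the lowest range, at 1306, 1250 and 1304 CPM in the next 3, and at 1684 and 2438 CPM in the highest. Fetub had most of its change at the first step, from 64.4 to 284 CPM, and reached 425 CPM in the highest range. Socs2 went from 74.6 to 146 and 201 CPM and stayed between 212 and 262 CPM above 1% of Retnla. The sodium pump partner Fxyd4 (33.0 to 462 CPM), Rgs4 (15.8 to 420 CPM) and Cldn10 (10.5 to 147 CPM) rose at every step.

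Other genes rose at first and fell at the top. Asns, which makes asparagine, went from 65.0 CPM to 155 and 151 CPM and then down to 131, 78.3 and 40.5 CPM. Psph, the last enzyme of serine synthesis, followed the same course, from 23.9 through 65.1 to 21.8 CPM. The stress factor Ddit3 fell from 158 CPM in the second range to 17.7 CPM in the highest, and the cell cycle inhibitor Cdkn1a fell at every step from 216 to 32.2 CPM. The stress response list of which Asns and Psph are members had 16 of 20 genes measured, 2 higher, 0 lower and a median log2 fold of 0.39 between the groups. Psph, 1 of the 2 higher, had 0.85 with cells rich in ATI or transitional markers left out, short of the 2-fold rule. Malat1 fell over the same ranges from 8357 to 2998 CPM. The highest range held 114 cells, so its intervals are the widest.

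Secretory pathway genes moved modestly. Among 20 genes of the unfolded protein response, 17 were measured, 1 was higher, 0 were lower and the median log2 fold was 0.32. Xbp1, a transcription factor that widens secretory capacity, was at 150 CPM in high and 63.1 CPM in low cells, a log2 fold of 1.23, and climbed at every step of Retnla to 201 CPM. Of the 19 measured oxidative phosphorylation genes, Ppargc1a (1.24) was higher and the median was 0.18. With cells rich in ATI or transitional markers left out, Xbp1 (0.96) and Ppargc1a (0.55) did not pass the 2-fold rule. Cholesterol genes had a median of 0.40 and MHC class II genes 0.33, with no member of either list past the 2-fold rule. With the same cells left out, the MHC class II median was −0.17.

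**Figure D4:**
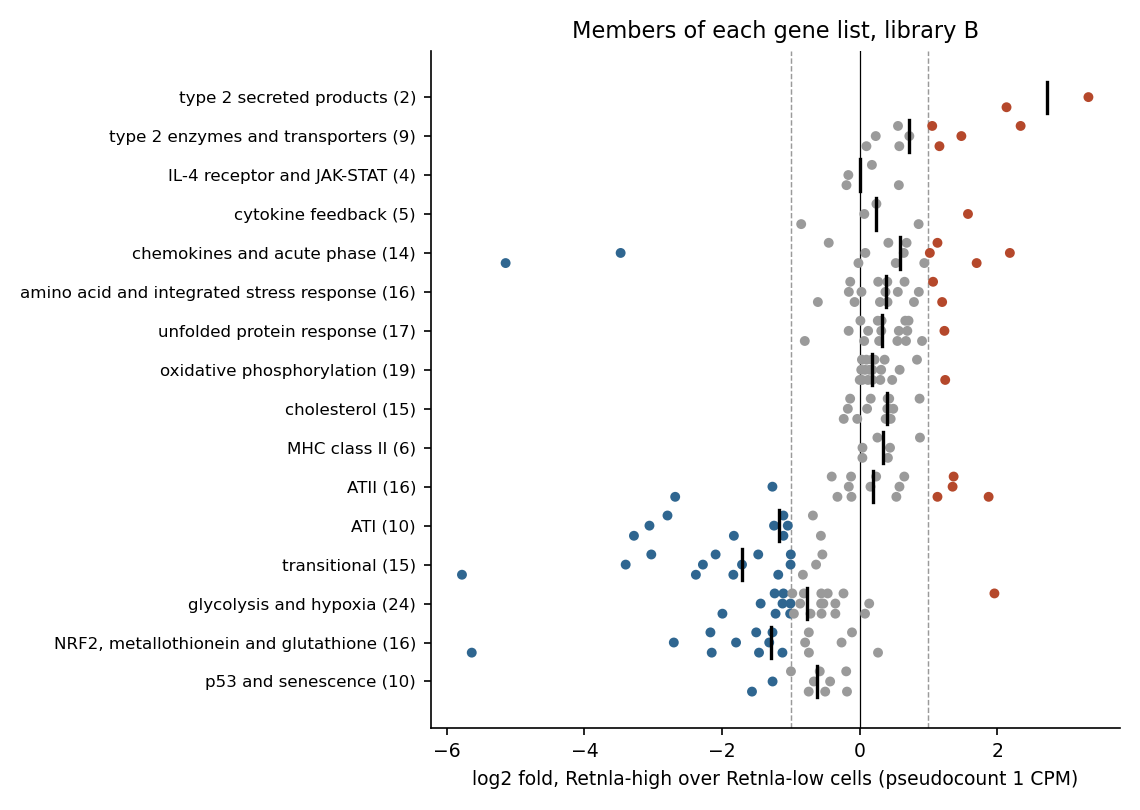
Log2 fold of each measured member (points) of 16 gene lists, Retnla-high over Retnla-low cells of library B, with the list median as a black bar, the number of measured members in brackets and dashed lines at 2-fold. The 2 type 2 secreted products lie to the right, and the ATI, transitional and glutathione lists lie mostly to the left.

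The Retnla-low group was more mixed in cell identity. All 16 ATII markers were measured in both groups, and their summed level was 196507 CPM in high and 127128 CPM in low cells. Per cell, the ATII list had a median of 193690 CPM in high cells (135275 to 252670 CPM between the 10th and 90th percentiles). In low cells the median was 114093 CPM with a range of 11034 to 222360 CPM. At least 10% of UMIs came from ATII markers in 2015 of 2064 high cells (97.6%) and in 562 of 1049 low cells (53.6%). Under 5% came from them in 2 high cells and in 339 low cells (32.3%, 29.5 to 35.2).

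Of the ATII markers, 4 were higher in Retnla-high cells, 2 were lower and the median log2 fold was 0.20. The surfactant protein Sftpa1 was at 13622 and 5285 CPM (1.37), Chil1 at 8437 and 3307 CPM (1.35), Cxcl15 at 15722 and 7179 CPM (1.13) and complement gene Hc at 46.2 and 11.9 CPM (1.87). Lysozyme 2 (Lyz2) went the other way, at 99.6 and 644 CPM (−2.68), as did the mucin Muc1 (−1.27). In the ATII-rich cells the list median was −0.22. Sftpa1 (0.87) and Chil1 (0.95) no longer passed the 2-fold rule there, and neither did Cxcl15, which left Hc (1.68) as the 1 member higher. These genes belong to the list that chose those cells, so their smaller folds follow in part from that choice.

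ATI markers and markers of the transitional state between ATII and ATI cells were lower in Retnla-high cells. Of 16 ATI markers 10 were measured, 8 were lower and 0 were higher, with a median log2 fold of −1.18 and summed levels of 1331 CPM in high and 3306 CPM in low cells. Ager, a receptor of the ATI membrane, was at 73.8 and 726 CPM (−3.28), Hopx at 18.6 and 162 CPM (−3.06) and Akap5 at 9.70 and 73.1 CPM (−2.79). Thinned to 3000 UMIs, Ager was seen in 17.4% of high and 59.2% of low cells (unthinned, 34.3% and 76.0%).

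Of 17 transitional markers 15 were measured, 12 were lower and 0 were higher, with a median of −1.71. S100a6, a small calcium-binding protein, had 113 counts in high and 2547 in low cells (6.26 and 398 CPM), a log2 fold of −5.78 (−6.28 to −5.72). Its UMIs were held by few cells: 61 high and 316 low cells had any. The keratin Krt19 was at 170 and 728 CPM (−2.09), galectin 3 (Lgals3) at 149 and 726 CPM (−2.28) and the cornified envelope gene Sprr1a at 24.7 and 209 CPM (−3.03). The transitional list had a median of 2598 CPM per high cell and 5861 CPM per low cell, and 61.7% of low cells exceeded the level that 10.0% of high cells exceeded.

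Some genes of glycolysis, hypoxia and the glutathione system were also lower. Of 25 genes of glycolysis and hypoxia 24 were measured, 1 was higher, 8 were lower and the median log2 fold was −0.76. Gapdh was at 4185 CPM in high and 11348 CPM in low cells (−1.44), the hypoxia-induced Bnip3 had −1.24 and Adm −1.99, whereas the glucose transporter Slc2a3 was higher (1.96, and 0.97 with marker-rich cells left out, as described below). Of 21 genes for NRF2 targets, metallothioneins and glutathione enzymes 16 were measured, 10 were lower and 0 were higher, with a median of −1.29. Metallothionein 2 (Mt2) was at 69.2 and 455 CPM (−2.70), heme oxygenase (Hmox1) at 114 and 510 CPM (−2.15) and glutathione transferase Gsta1 at 1.33 and 115 CPM (−5.64). Reads of Gsta1 could be divided with its near-copies Gsta2 and Gm3776. Of 10 measured genes of the p53 and senescence list, Cdkn1a (−1.27) and Cdkn2b (−1.57) were lower and the median was −0.62. With marker-rich cells left out, Cdkn2b had −0.51 and the list median was 0.005.

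These lower genes were read again in narrower sets of cells, chosen by a cut on marker share and not matched between the groups. In cells with at least 10% of UMIs from ATII markers, 2015 high and 562 low, 102 genes were higher and 107 lower, of which 86 and 77 were among the calls in all cells. The groups still differed there: the median cell drew 19.5% (high) and 17.7% (low) of UMIs from ATII markers. For transitional markers the medians were 0.257% and 0.365%. When the 20% of cells richest in transitional or ATI markers were left out, 1873 high and 334 low cells remained, with 85 genes higher and 95 lower, of which 73 and 48 were among those calls. More of the calls of higher genes than of lower genes were thus shared with the narrower sets, in number and as a share of each list. The cuts took out cells poor in ATII markers or rich in ATI or transitional markers, so the loss of lower calls follows in part from them.

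Chil4, Chia1 and Rgs4 were nearly as far apart in the narrower sets, and Il4i1 and Socs2 were less far apart but past 2-fold. In the ATII-rich cells Chil4 had a log2 fold of 3.27, Chia1 2.06, Il4i1 1.78, Rgs4 3.89 and Socs2 1.27. With marker-rich cells left out the values were 3.22, 2.26, 1.81, 3.63 and 1.25. Hdc fell short of the 2-fold rule in ATII-rich cells (0.88) and among cells at or above the median depth (0.63). Car2 (0.79 and 0.78) and Slc26a4 (0.87 and 0.45) fell short both in ATII-rich cells and with marker-rich cells left out.

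Several stress and transitional genes were closer together in the narrower sets. With marker-rich cells left out, S100a6 had a log2 fold of −0.68, Sprr1a −0.13, Gsta1 −0.99, Hmox1 −0.65 and Gapdh −0.61, while Adm (0.44), Cdkn1a (0.51) and Dusp1 (0.14) had the opposite sign. The transitional list median was −0.50, the glutathione list median −0.48 and the glycolysis and hypoxia median −0.24. S100a6 and Sprr1a belong to the lists by which those cells were left out, so their smaller folds follow in part from that step. Gsta1, Hmox1 and Gapdh are in neither list. With those cells left out, Gsta1, S100a6, Sprr1a and Adm were under 20 CPM in both groups. The added 1 CPM makes folds at such levels smaller. Of the measured markers, 3 of 10 ATI genes (Ager at −1.71) and 2 of 15 transitional genes stayed at least 2-fold lower there. Of 16 glutathione-list genes, 1 did, Mt2 at −1.48. In ATII-rich cells, a choice that uses no transitional gene, S100a6 kept a log2 fold of −2.64, Sprr1a −1.94 and Hmox1 −1.41.

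Some genes were further apart in the narrower sets, in both directions. Among higher genes, the log2 fold of Fxyd4 went from 2.86 in all cells to 3.14 in ATII-rich cells. That of the airway gene Scgb1a1 went from 1.08 to 2.07. Other higher genes, such as Chil4 and Il4i1, were not further apart. The lower genes that follow were further apart as well. Lysozyme 1 (Lyz1) was at 58.4 CPM in all high and 615 CPM in all low cells, a log2 fold of −3.38, and at 59.0 and 944 CPM in ATII-rich cells, a log2 fold of −3.98. Lyz2 went from −2.68 to −3.33, Saa3 from −5.15 to −5.65, Hp from −3.47 to −4.03 and the interferon-induced Isg15 from −2.04 to −2.65. Isg15 UMIs were found in 95 high and 96 low cells. Of 18 interferon genes 7 were measured, and in all cells Isg15 alone passed the 2-fold rule, with a list median of −0.16. Lyz1 was concentrated: 119 low cells (at least 0.1% of UMIs) averaged 4189 CPM and the other 930 averaged 53.7 CPM. The 119 cells drew a median of 19.1% of UMIs from ATII markers, close to the 19.5% of ATII-rich Retnla-high cells. In them Lyz2 stood at 1094 CPM, Saa3 at 149 CPM, S100a6 at 23.0 CPM and Chil4 at 216 CPM. The Retnla-low group thus held both cells poor in ATII markers and ATII-marker-rich cells with Lyz1. The lysozyme genes Lyz1 and Lyz2 are close copies at chr10:117287797-117292868 and chr10:117277331-117282321 (both minus strand), and the counting could divide their reads.

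**Figure D5:**
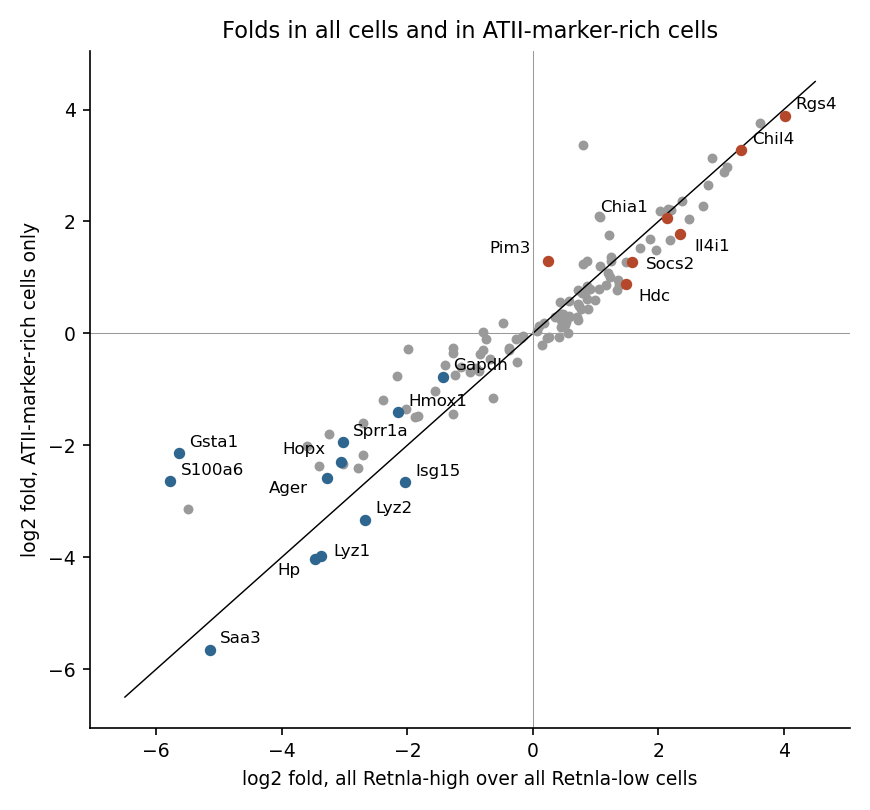
Log2 fold of 121 named genes in all cells (horizontal axis) and in cells with at least 10% of UMIs from ATII markers (vertical axis), both Retnla-high over Retnla-low in library B, with the line of equal values. Chil4 and Rgs4 lie near the line, S100a6 and Gsta1 lie well above it, and Lyz1, Lyz2, Hp and Saa3 lie below it.

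Defining transcripts of most other lineages were at or near 0 in both groups. The leukocyte gene Ptprc had 0 counts in high and 1 in low cells, and 10 of 16 macrophage or monocyte markers, among them Adgre1, Marco and C1qa, were at 0 in both. Of 9 markers of T, NK or innate lymphoid cells 8 were at 0, as were 6 of 8 granulocyte or mast cell markers, 6 of 8 fibroblast or muscle markers and 3 of 7 endothelial markers. The 5 B cell markers summed to 176 CPM in high and 63.1 CPM in low cells, nearly all of it Cd79b (1.48), which was the only one measured. Airway secretory markers summed to 173 CPM in high and 81.7 CPM in low cells, with 4 of 10 measured, and Scgb1a1 (1.08) and Cbr2 (1.25) higher. Scgb1a1 was found in 193 high and 65 low cells, and its part in the other differences was not tested. Its log2 fold was 0.78 with equal weight per cell, short of the 2-fold rule, and 2.86 with marker-rich cells left out. Cbr2 had 0.95 with marker-rich cells left out, also short of the rule.

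The same rule in library C, where 5900 cells were Retnla-high and 4789 Retnla-low, gave 114 of 4617 genes higher (2.47%) and 129 lower (2.79%). Of the 118 genes higher in library B, 77 were also called higher in C (65.3% of the B genes and 67.5% of the C genes), and of the 206 lower genes 104 were (50.5% and 80.6%). No gene called in one library was called in the opposite direction in the other. These libraries are not replicates of each other, since their groups are not known.

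The sizes differed for the chitinases. In library C, Chil4 was at 3699 CPM in Retnla-high and 60.7 CPM in Retnla-low cells (log2 fold 5.91) and Chia1 at 1735 and 26.3 CPM (5.99). The Retnla-low cells of library B thus held 1305 CPM of Chil4 where those of library C held 60.7 CPM. Il4i1 was at 21.5 and 5.09 CPM in library C (1.89), Rgs4 had a log2 fold of 5.44 and Socs2 1.63. Ager differed less there (−1.08), as did Hopx (−1.87), and Isg15 (−0.13) did not pass the 2-fold rule. Whether the libraries differ in these folds was not tested.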

How the data were processed

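The authors deposited 1 matrix of unnormalised UMI counts per gene and barcode. Per the labels' protocols these are 10x Genomics 3′ libraries with cell multiplexing, and reads passed through bcl2fastq and Cell Ranger 6.0.1 with builds GRCm38 and mm10, per the submitters' processing notes. Their cell calling and doublet removal are not given in the sources used here. Library B held 48677816 UMIs. Gene IDs took symbols from GENCODE's GRCm38 annotation (52403 of 52636 named, the others 0.0209% of UMIs). No doublet caller was run. Leaving out the deepest 5% of cells of each group was among the other settings tried. It cannot tell doublets from single cells, since a doublet can lie within the depth that was kept. Sums, folds and intervals were computed in Python 3.11.15 with scipy 1.17.1, and TMM factors with edgeR 4.0.16. The calculation was checked on simulated data. Genes named are the marker genes, the 12 highest and 12 lowest folds with at least 50 CPM, up to 4 members of each list by size of fold, and all measured members of the type 2, receptor and feedback lists, beside others said to be chosen after their values were seen and list members called. The cells, marker genes and gene lists were chosen with earlier results of these data known. Comparisons of IL-4 with PBS, of ages and of days were not made, since no barcode maps to them.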

Additional observations from a re-analysis of the deposited data

Results flagged for a closer look

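Library A, whose cells enter no comparison, held 1745 Retnla UMIs among 63658436 UMIs, or 27.4 CPM, above the 0.0471 CPM that a count of 0 allows at that depth. By the same cuts 7 of its 16180 cells without cell cycle UMIs were Retnla-high and 54 lay between the cuts, and the 7 cells held 19.7% of its Retnla UMIs. None of the 7 droplet barcodes occurs in library B or C. Those 7 cells had no Chil4 UMI, which at 30474 UMIs in all allows up to 98.4 CPM, and Chia1 at 492 CPM (275 to 812), while the 16119 Retnla-low cells of library A had Chia1 at 372 CPM (367 to 376) and Chil4 at 0.112 CPM.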

How the results depend on the processing

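Of 17 alternatives to the settings used, 1 (cells with at least 10% of UMIs from ATII markers) was chosen after seeing the data. No gene called higher became called lower, or the reverse, under any of them. Without the 20 CPM minimum 320 genes were higher and 561 lower, and with 10 CPM added to each sum 75 and 133. With transitional- and ATI-marker-rich cells left out 95 genes were lower, and in ATII-rich cells 107. The ATI median was −0.93 without the cell cycle gate, −0.91 in cells at or above the median depth, −0.34 with marker-rich cells left out and −0.82 in ATII-rich cells. With marker-rich cells left out and in ATII-rich cells, the glutathione list had −0.48 and −0.61 and the feedback list 1.25 and 1.27, and the transitional list had −0.50 in the first. Adm (0.44), Cdkn1a (0.51) and Dusp1 (0.14) reversed with marker-rich cells left out; the cause was not tested. TMM scaling moved the median of all genes from −0.08 to 0.04 and gave 146 higher and 169 lower genes. Over these settings Chil4 ranged from 3.04 to 5.0, Chia1 from 1.78 to 3.74 and Il4i1 from 1.74 to 2.56. In the 376 other combinations of a list median or a count with an alternative, the median kept its side of the 2-fold mark or the count stayed within 1.5 times. Some of these medians changed sign. With marker-rich cells left out, the ATII list had −0.31, MHC class II −0.17 and chemokines and acute phase −0.08. In ATII-rich cells the same lists had −0.22, −0.06 and 0.12. No paired analysis was possible because each group has 1 library and no test was run. Genes under 20 CPM rest on few counts, and cells of 1 library are not replicates, so no spread between mice could be given.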

Other observations

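Some genes of development and of other lineages differed between the groups. Sox9, a transcription factor of lung bud tips, was at 29.6 CPM in Retnla-high and 3.44 CPM in Retnla-low cells (log2 fold 2.79) and rose at every step of Retnla share from 3.44 to 55.0 CPM. Among 17 measured alveolar transcription factors and growth signals it was the only member past the 2-fold rule, and the list median was −0.12. Cd79b, a chain of the B cell receptor complex, was at 175 and 62.2 CPM (1.48) and Ly6c2, a monocyte surface gene, had 575 and 77 counts (1.33). Ly6c2 did not pass the 2-fold rule in ATII-rich cells (0.78), with marker-rich cells left out (0.80) or in library C (0.71), and 10 of the 16 markers of its list were at 0 in both groups. Pifo, a gene of primary cilia, had 447 counts in high and 13 in low cells (3.09) and was the only measured member of 10 ciliated cell markers.

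The noncoding RNAs Meg3 and Rian, neighbours in the imprinted Dlk1 region, were higher in Retnla-high cells. Meg3 was at 379 and 83.9 CPM (2.16) and Rian at 47.1 and 10.8 CPM (2.03). In library C their log2 folds were 2.95 and 3.02. Meg3 went from 83.9 to 336 CPM between the first 2 ranges of Retnla share and was at 227 CPM in the highest. The imprinted cell cycle inhibitor Cdkn1c went the other way, at 6.87 and 27.8 CPM (−1.87). Among matrix genes, fibronectin (Fn1) was higher (1.05) and Tgfb2 (−2.03) and Plaur (−1.15) were lower, and in ATII-rich cells Fn1 had 2.09, Tgfb2 −1.35 and Plaur −0.59. With marker-rich cells left out Tgfb2 (−0.71) and Plaur (−0.65) did not pass the rule. With equal weight per cell Fn1 had 0.90, short of the 2-fold rule.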
